A study of Drosophila melanogaster with 12 samples.

Results

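The interior of the left arm of chromosome 2 (2L) was taken as the region from 1000001 to 21000000 of the dm3 assembly, which leaves out the telomeric end and the pericentromeric end of the arm. It comprised 5000 of the 24153 bins of 4 kb on the arms 2L, 2R, 3L and 3R, and 200 of their 969 windows of 100 kb. The bins were chosen by position alone. All cells were PnM cells, 1 clonal *Drosophila* line, male and diploid, that inherited its maternal and paternal homologs from different inbred strains. Haplotype-resolved Hi-C assigns each side of a ligated read pair to 1 of the homologs from the sequence variants that it carries. The groups were untreated cells, cells of a mock RNAi treated with water, cells given dsRNA against Slmb and cells given dsRNA against TopII, with 2 replicates each. The labels do not say whether replicates were separate cultures, so that the p-values measure only the spread between libraries. Gene positions of dm3 were not used here, and regions are given by position.

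In flies the maternal and paternal homologs lie side by side in most somatic cells, a state known as pairing, and enhancers on 1 homolog can act on the promoter of the other (transvection). A contact within a homolog is called *cis*, and a contact between the homologs of an arm is called *thom*. Where the homologs are tightly paired, a locus meets a neighbour on the other homolog nearly as often as the same neighbour on its own. Slmb is the F-box subunit of a ubiquitin ligase that targets the condensin II subunit Cap-H2, and TopII is topoisomerase II, which passes DNA strands through each other. Both are known to promote pairing in cultured fly cells.

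The interior held 4892629 and 4995742 read pairs in the untreated libraries and between 1328629 and 1570263 in the 6 libraries of the RNAi series. Unligated fragments with a side assigned to the wrong homolog appear as *thom* pairs that face inward under 1 kb. The excess of such pairs over the mean count of the other orientations was 0.413% to 0.530% of *thom* pairs. A *thom* pair had its maternal side nearer to the telomere in 49.8% to 50.4% of cases. The number of locus pairs at a given separation is the same in *cis* and *thom*, so that the ratio of *thom* to *cis* read pairs (thom/cis) is the ratio of their contact frequencies.

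In untreated cells thom/cis rose with separation. It was 0.652 ± 0.0043 (SD, n = 2 replicates) at 1 to 10 kb, from 306698 *thom* and 470621 *cis* pairs. At 10 to 100 kb the ratio was 0.816 ± 0.00017. From 100 kb to 1 Mb it was 0.928 ± 0.0037, and from 1 to 10 Mb it was 0.950 ± 0.00024. Each step exceeded the SD over the replicates, and at no range did the pooled ratio reach 1. In narrower ranges it began at 0.573 and 0.548 in the 2 replicates between 1 and 1.33 kb, and reached 0.907 and 0.896 just over 100 kb. Above that the untreated ratio rose less steeply, to 0.964 and 0.966 between 7.5 and 10 Mb. Mock cells had 0.893 and 0.883 at 178 to 237 kb, lower values of 0.846 and 0.857 at 422 to 562 kb, and 0.944 and 0.930 between 7.5 and 10 Mb, as the plot of thom/cis by separation shows.

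**Figure D1:**
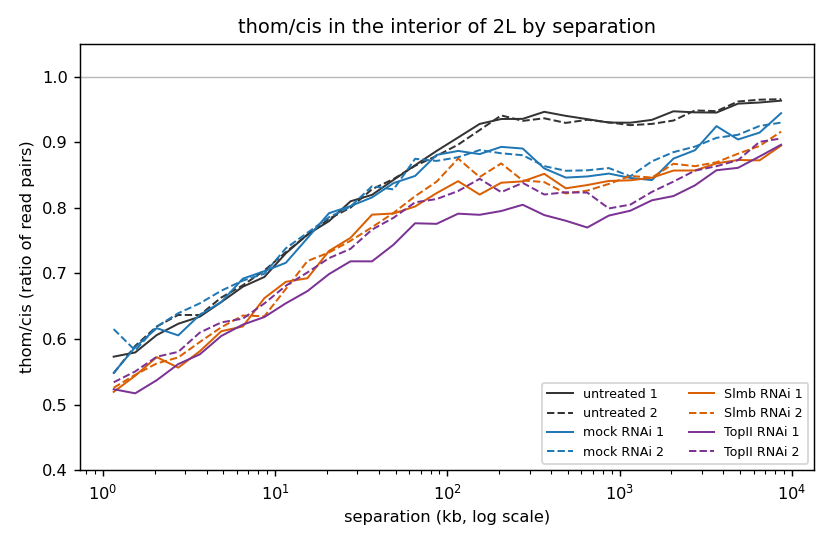
Ratio of *thom* to *cis* read pairs in the interior of 2L (vertical axis) against separation in kb (horizontal log axis), 1 line per library. The untreated lines run from 0.573 and 0.548 at 1 kb to 0.964 and 0.966 in the last range before 10 Mb, and the Slmb and TopII lines lie below the mock lines over most of the axis.

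The interior of 3L between the same positions was used for comparison. Log2 thom/cis at 1 to 30 kb was higher in 2L than in 3L in 8 of 8 libraries, by 0.027 ± 0.018 (SD, n = 8 libraries), with an exact two-sided sign-flip p of 0.0078, the smallest that 8 libraries allow. The 8 libraries come from 4 conditions, so their mean and SD also hold differences between conditions. The difference ran from 0.0065 to 0.049 and was small against the spread along the arm. Pooled ratios in 2L and 3L were 0.713 and 0.709 for untreated cells and 0.711 and 0.701 for mock. They were 0.657 and 0.636 after Slmb RNAi and 0.649 and 0.632 after TopII RNAi. Whether the difference between the arms varied with condition was not tested. At 1 to 30 kb 2L was higher in 7 of 8 libraries from same-strand pairs and at a mapping quality of at least 30, with lowest differences of −0.0039 and −0.0076 (exact two-sided sign-flip p = 0.016 each). From same-strand pairs at 1 to 10 kb the untreated ratio was 0.655 in 2L and 0.656 in 3L. At 100 kb to 1 Mb the difference was 0.050 ± 0.016 and lay between 0.032 and 0.076 in the 8 libraries.

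Along the interior, thom/cis varied far more than between replicates. Each window of 100 kb was given the *thom* and *cis* pairs at 1 to 30 kb whose midpoint fell in it, with 310 to 10479 *thom* pairs a window in the untreated pool. The 10th percentile of the 200 windows was a log2 thom/cis of −1.02, a ratio of 0.493, and the 90th percentile was −0.22, a ratio of 0.861. These percentiles lay 0.80 ± 0.0099 (SD, n = 2 replicates) apart. The profiles of the untreated replicates had a Pearson correlation of 0.980 across the 200 windows, which are neighbours on 1 chromosome and not independent, and those of the 6 RNAi series libraries correlated with them at 0.923 to 0.939. Low and high windows thus lay largely in the same places in all 4 conditions, as the profile along the arm shows.

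**Figure D2:**
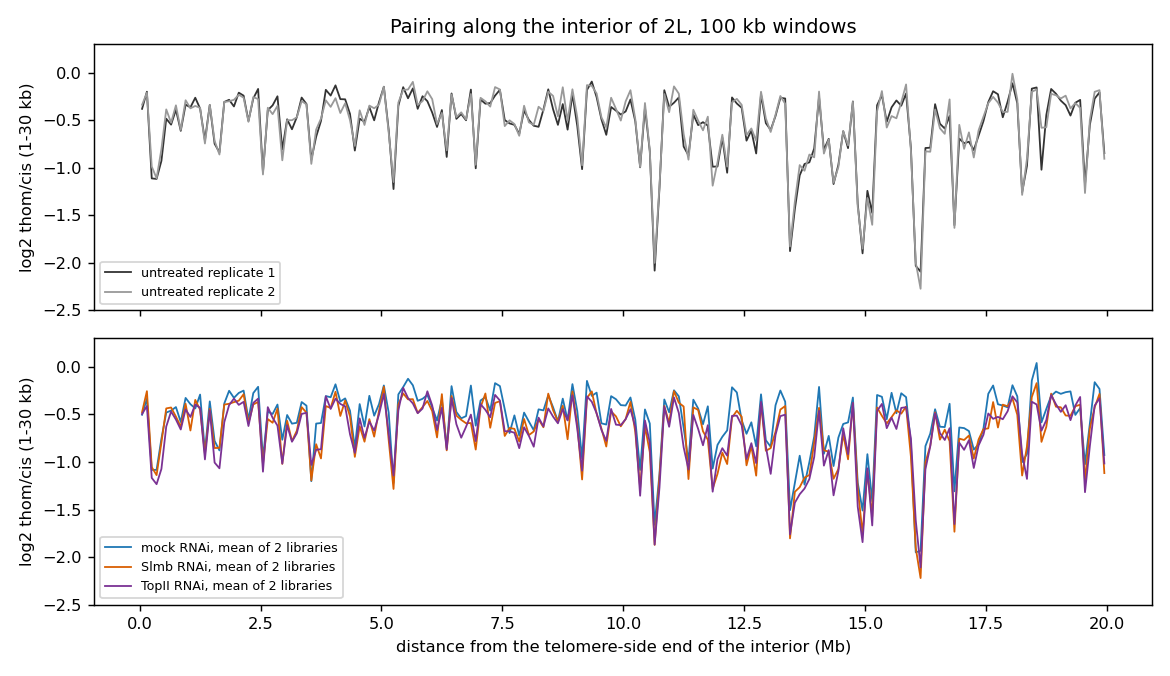
Log2 thom/cis at 1 to 30 kb (vertical axis) in 200 windows of 100 kb, by distance from the telomere-side end of the interior in Mb (horizontal axis). The upper panel has the untreated replicates and the lower panel the means of 2 libraries of mock, Slmb and TopII RNAi. The quartiles of the untreated pool are −0.71 and −0.30, and narrow dips reach −2.18.

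The weakest window was 2L:17100001-17200000. Its log2 thom/cis was −2.09 and −2.27 in untreated cells, −1.98 and −1.89 in mock, −2.22 and −2.22 after Slmb RNAi and −2.19 and −2.03 after TopII RNAi. It had the fewest *thom* pairs, 310 against 1407 *cis* pairs in the untreated pool, at a ratio of 0.220. The window beside it, 2L:17000001-17100000, had a ratio of 0.248. The other windows among the 5 weakest were 2L:11600001-11700000 at 0.243, 2L:15900001-16000000 at 0.273 and 2L:14400001-14500000 at 0.277. All 5 lay beyond the middle of the interior, toward the centromere, and each was far below the whole interior, which had a log2 of −0.49 and −0.48 in the untreated replicates.

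The strongest window was 2L:19000001-19100000, with a ratio of 0.958 in the untreated pool and log2 values of −0.11 and −0.013 in its replicates. The replicates of this window, with 1085 *thom* pairs, differed by more than the gap to the next window, so that the order at the top is not resolved. The next were 2L:10300001-10400000 at 0.922, 2L:6600001-6700000 at 0.912, 2L:6000001-6100000 at 0.902 and 2L:10200001-10300000 at 0.896. In mock cells the log2 values of these 5 windows ranged from −0.36 to −0.11.

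Blocks of 2 Mb followed the same order in both replicates in their main contrast. In the 4 blocks between 11000001 and 19000000 thom/cis was between 0.635 and 0.676 in each untreated replicate. It was between 0.746 and 0.772 in the 4 blocks between 3000001 and 11000000 apart from 1 value of 0.737, and 0.764 in both replicates of the last block, from 19000001 to 21000000. The middle and proximal blocks from 11000001 to 19000000 held 14 of the 20 weakest windows, and 5 of the 20 strongest lay in the last block. Neighbouring windows were only loosely alike, with a Pearson correlation of 0.396 over 199 pairs of neighbours that share flanking contacts.

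Within the region from 15 to 19 Mb, the median log2 thom/cis of 40 windows was −0.62, and it spanned −2.18 in 2L:17100001-17200000 to −0.17 in 2L:16800001-16900000. Within the region from 6.0 to 7.5 Mb the median of 15 windows was −0.33, and it spanned −1.19 in 2L:6200001-6300000 to −0.13 in 2L:6600001-6700000. Weak and strong pairing thus alternated over short distances in both regions.

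The contrast between windows was widest at short separations. The 20 weakest windows, chosen on untreated thom/cis at 1 to 30 kb, had a ratio of 0.311 at 1 to 10 kb and 0.569 at 10 to 100 kb in the untreated pool, and 0.874 at 100 kb to 1 Mb. The 20 strongest windows had 0.830, 0.949 and 0.935. At 100 kb to 1 Mb, which did not enter the choice, the classes were separated in the untreated replicates (0.872 and 0.876 against 0.929 and 0.942) and overlapped in mock cells (0.846 and 0.865 against 0.850 and 0.850). The classes also differed in their *cis* contacts. The log2 ratio of *cis* pairs at 10 to 100 kb over those at 1 to 10 kb had a median of 1.95 in the 20 weakest windows, with a range of 1.58 to 2.27, and of 0.64 in the 20 strongest, with a range of 0.23 to 1.43. The ranges did not overlap, so that the weakest windows had *cis* contacts that reached further. These *cis* counts are the denominator of the ratio that chose the windows, and no test was made.

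Read depth and thom/cis were nearly uncorrelated across windows. The number of read sides had a median of 96093 in the 20 weakest windows and 108937 in the 20 strongest, with ranges of 49348 to 202871 and 30821 to 170842, and its Spearman correlation with thom/cis over 200 windows was 0.065. The maternal homolog had a median log2 excess of *cis* pairs over the paternal homolog of 0.013 over all windows, with a range from −0.40 to 0.31.

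At the scale of 4 kb bins, the pairing score (PS) is the log2 mean of balanced *thom* contacts between bins within 12 kb to each side of a bin, and the *cis* score (CS) is the same in *cis*, both relative to the median CS of the autosomes. Contacts within a bin and between adjacent bins were left out of both scores. The definition of PS in the paper names no such exclusion, so PS here is not directly comparable with it. Of the 5000 bins, 4563 (91.3%) could be scored in the untreated pool. PS had a median of −0.50 and ran from −1.44 at its 10th percentile to −0.041 at its 90th. CS had a median of −0.085 and ran from −0.42 to 0.25, so that PS had the wider spread. Between the untreated replicates the Spearman correlation across bins was 0.836 for PS and 0.660 for CS.

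Stretches were runs of at least 10 bins in the lowest 20% (weak) or the highest 20% (strong) of PS minus CS over the autosomes. A single bin between 2 passing bins could miss the limit or be unscored. The limits were −1.09 and −0.20, and the nearest bins of 2L on either side of them had −1.0904 and −1.0886, and −0.1966 and −0.1964. There were 24 weak stretches, with a median length of 68 kb and 10.5% of the interior, and 34 strong stretches, with a median length of 48 kb and 9.82%. The median CS of the stretches was −0.15 in weak and −0.17 in strong ones, while the median PS was −1.55 and −0.21. In the replicates analysed alone, 80.7% and 73.1% of the bins in weak stretches were found again as weak, and 63.5% and 54.0% of those in strong stretches as strong. The stretches were called in the pool of these same replicates, so these shares do not compare independent data.

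The longest weak stretch was 2L:16932001-17156000, with a length of 224 kb and a mean PS minus CS of −2.05. At separations of 8 to 28 kb with both sides inside it, thom/cis was 0.2997 and 0.2992 in untreated cells, 0.325 and 0.380 in mock, 0.359 and 0.292 after Slmb RNAi and 0.414 and 0.394 after TopII RNAi. The second, 2L:15824001-16028000 with 204 kb, had the lower CS of −0.55 and untreated ratios of 0.309 and 0.352. The third, 2L:14416001-14568000 with 152 kb, had untreated ratios of 0.294 and 0.286. In each of the 3, the 8 libraries had a ratio of 0.448 or less.

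The longest strong stretches were 2L:5968001-6120000 with 152 kb, 2L:10292001-10408000 with 116 kb and 2L:6452001-6552000 with 100 kb. Their thom/cis at 8 to 28 kb was 0.961 and 0.963, 1.02 and 0.971, and 0.965 and 0.941 in the untreated replicates. In the first of them it was 0.855 and 0.925 in mock, 0.902 and 0.919 after Slmb RNAi and 0.877 and 0.947 after TopII RNAi. All 6 libraries of the RNAi series were thus below both untreated libraries in that stretch, and mock, Slmb RNAi and TopII RNAi overlapped each other. The stretch was chosen for high untreated values at about these separations, so this is not a comparison of conditions. In the weak stretches together, chosen for low untreated values, the order was reversed. The ratios there were 0.373 and 0.372 in untreated cells and 0.382 to 0.449 in the RNAi series.

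Means and SDs over the RNAi series also hold differences between mock, Slmb RNAi and TopII RNAi. The 6 libraries of this series had no part in choosing the stretches. Log2 thom/cis at 8 to 28 kb was lower in weak than in strong stretches in 6 of 6 of them, by 1.09 ± 0.062 (SD, n = 6 libraries), with an exact two-sided sign-flip p of 0.031, the smallest that 6 libraries allow. The ratios were 0.382 to 0.449 in weak stretches and 0.839 to 0.913 in strong stretches, from at least 2284 *thom* pairs a library. Beyond 28 kb both sides were counted in stretches of the same class, and the difference was smaller. It was 0.61 ± 0.11 at 28 to 100 kb and 0.10 ± 0.064 at 100 kb to 1 Mb, and weak stretches remained lower in 6 of 6 libraries at both ranges (exact two-sided sign-flip p = 0.031 each). At 1 to 10 Mb the difference was 0.093 ± 0.065 in the RNAi series. Weak stretches were again lower in 6 of 6 libraries (exact two-sided sign-flip p = 0.031). In the untreated replicates the difference was 0.013 and 0.0022.

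**Figure D3:**
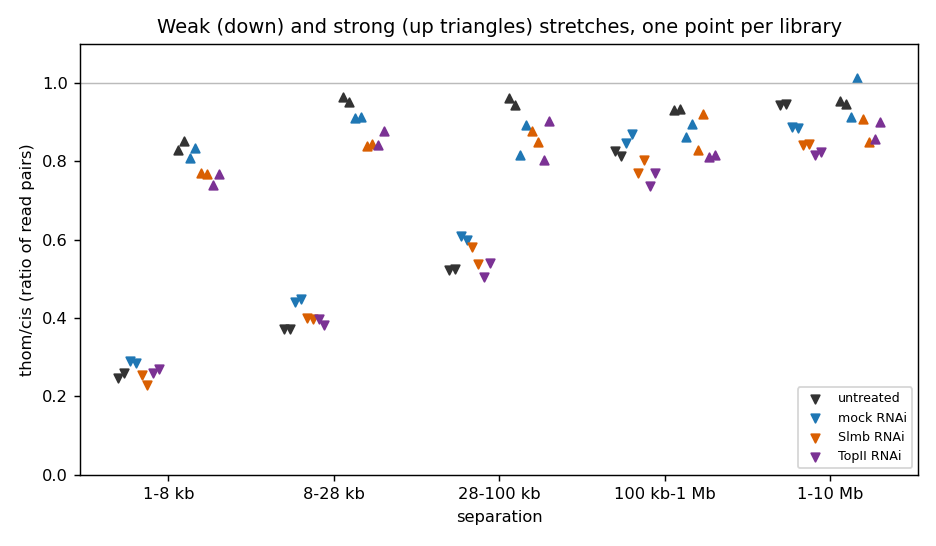
Ratio of *thom* to *cis* read pairs (vertical axis) in weak (down triangles) and strong (up triangles) stretches of 2L at 5 ranges of separation, 1 point per library, coloured by condition. Up to 28 kb both sides lie in the same stretch, and beyond it in stretches of the same class. Weak stretches rise from 0.229 to 0.290 at 1 to 8 kb to 0.816 to 0.946 at 1 to 10 Mb.

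Stretches of a class also met each other over long distances. In maps of 20 kb bins, contacts at least 1 Mb apart were divided by the mean at the same separation (observed over expected), with 102 weak and 98 strong bins. In *thom*, the log2 observed over expected value averaged over the 8 libraries was 0.073 between weak stretches, 0.62 between strong stretches and −0.30 between a weak and a strong stretch. The mean of the like classes exceeded the unlike class by 0.65 ± 0.053 (SD, n = 8 libraries) in *thom* and by 0.63 ± 0.069 in *cis*, in 8 of 8 libraries each, with an exact two-sided sign-flip p of 0.0078 for both. It lay between 0.60 and 0.74 in *thom* and between 0.51 and 0.75 in *cis*, and the lowest *thom* values were those of TopII RNAi, 0.60 and 0.61. The excess came mostly from strong stretches, with 0.59 to 0.69 between them in *thom* against 0.028 to 0.16 between weak ones. The 8 libraries come from 4 conditions and include the untreated libraries that chose the stretches. Contacts at least 1 Mb apart had no part in that choice.

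Domain boundaries were minima of the insulation score, the log2 mean contact across a bin within 5 bins to each side, that stood out by a prominence of more than 0.3. The untreated pool had 247 *cis* boundaries and 259 *thom* boundaries in the interior, at a median spacing of 70 kb and 68 kb. Of the *cis* boundaries, 186 (75.3% ± 1.3, SD of the replicates analysed alone) had a *thom* boundary within 16 kb, and 86 had it in the same bin. A *cis* boundary lay as near to 192 of the *thom* boundaries (74.1% ± 1.3). Over the 4 arms the shares were 76.4% and 74.9%. At a median spacing of 68 kb, many positions lie within 16 kb of a *thom* boundary by place alone. The share over all bins was not computed, so these percentages have no baseline. In the replicates analysed alone, 78.2% and 76.4% of the *cis* boundaries had a *thom* partner, and 78.9% and 82.5% were found again among the *cis* boundaries of the other replicate. Of the *thom* boundaries, 71.5% and 73.3% had a *cis* partner, and 73.9% and 80% were found again in *thom*. Each share between the maps was below the matching share between replicates, barely so for *cis* in replicate 1. The lists searched differed in length, with 330 and 300 *thom* boundaries against 294 and 280 in *cis*, so these shares are not directly comparable. Of the maternal *cis* boundaries, 81.8% were found on the paternal homolog.

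The most prominent *cis* boundaries were 2L:16256001-16260000, with a prominence of 2.92, 2L:10204001-10208000 with 2.43 and 2L:18152001-18156000 with 2.42. Each had a *thom* boundary within 4 kb, with prominences of 1.06, 1.73 and 1.61. Boundaries without a partner were shallower, with a median prominence of 0.54 against 0.95 in *cis* and of 0.50 against 0.72 in *thom*. The most prominent *cis* boundaries without a partner were 2L:11516001-11520000 with 1.52, 2L:17380001-17384000 with 1.43 and 2L:6320001-6324000 with 1.36, and the last of these lay 20 kb from a *thom* boundary. The most prominent *thom* boundaries without a partner were 2L:6196001-6200000 with 1.91, 2L:19264001-19268000 with 1.77 and 2L:4084001-4088000 with 1.57. Their PS was −1.76, −1.62 and −1.60, in the range of weak stretches.

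The 3 kinds of boundary differed in PS. At the 186 boundaries found in both maps the median PS was −0.51 and rose to −0.29 at 16 kb, while CS rose from −0.30 to 0.034. PS minus CS was therefore highest at the boundary, −0.21, and fell to −0.39 at 28 kb. At the 61 *cis*-only boundaries PS minus CS was −0.26 and fell to −0.55 at 28 kb. At the 67 *thom*-only boundaries the order was turned round, with a PS minus CS of −1.002 at the boundary and −0.64 at 28 kb, and a CS that stayed between −0.13 and −0.052 over that distance. Both replicates showed these profiles. The boundary calls and the scores come from the same maps, so this is a description with no test. The paper reports higher PS near domain boundaries than far from them. PS here leaves out contacts within a bin and between adjacent bins, so the lower PS at shared boundaries is not directly comparable. PS and the *thom* insulation score also share many *thom* contacts, so a low PS at *thom*-only boundaries follows in part from how they were called.

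**Figure D4:**
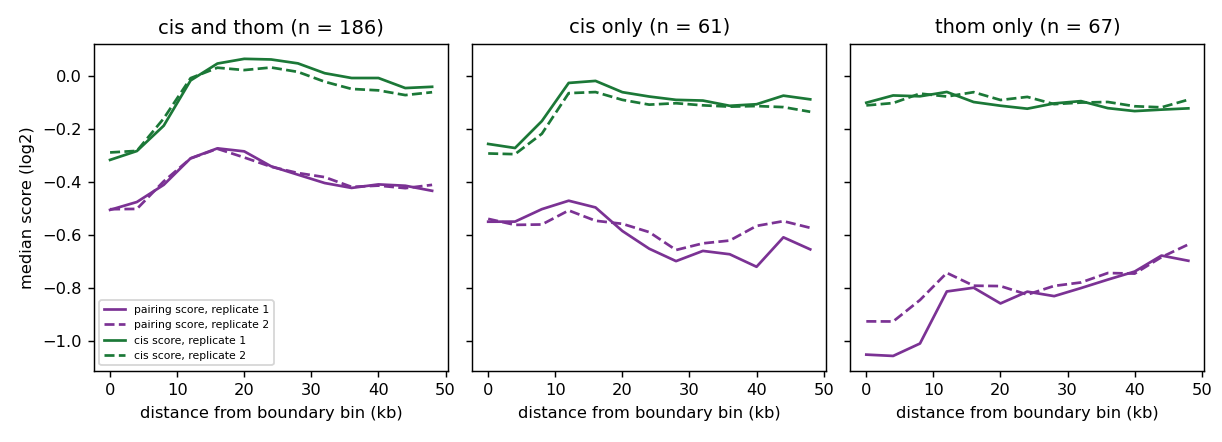
Median PS and CS (vertical axis, log2) by distance in kb from boundary bins of 2L (horizontal axis) in the 2 untreated replicates, for boundaries found in both maps (186), in *cis* only (61) and in *thom* only (67). CS dips at the boundary in the first panels, and PS is lowest, at −1.05 and −0.93, at *thom*-only boundaries.

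Weak stretches held few *cis* boundaries but not few minima of the *thom* insulation score. Inside the 24 weak stretches lay 10 *cis* boundaries, 4.77 per Mb, and inside the 34 strong stretches lay 38, 19.3 per Mb, against 12.3 per Mb over the whole interior. No *cis* boundary lay inside 17 of the weak stretches and 2 of the strong stretches. The *thom* boundaries inside weak stretches numbered 29, 13.8 per Mb, and those inside strong stretches 32, 16.3 per Mb, against 12.95 per Mb over the interior. The stretches were chosen on scores from the same maps, and no test was made. CS, which is subtracted in PS minus CS, was low at *cis* boundaries, so the *cis* counts follow in part from the choice. PS and the *thom* insulation score average many of the same *thom* contacts, so a dip in PS can itself give a *thom* minimum. These counts therefore do not show that weak stretches hold *thom* domain boundaries. Contacts across the shared boundaries were counted without balancing, as the log2 ratio of pairs that cross within 20 kb to pairs on the same side, relative to all bins. In *thom* this was −0.47 and −0.41 in untreated cells, −0.50 and −0.50 in mock, −0.51 and −0.51 after Slmb RNAi and −0.48 and −0.46 after TopII RNAi. The 8 *cis* values lay between −0.52 and −0.43, so that the *thom* and *cis* values overlapped. At the 67 *thom*-only boundaries the *thom* value was shallower, −0.17 and −0.16 in untreated cells and −0.14 to −0.074 in the RNAi series. At the 61 *cis*-only boundaries the *thom* value was −0.16 and −0.12 in untreated cells and −0.24 to −0.13 in the RNAi series. These ranges overlapped those of *thom*-only boundaries. At the shared boundaries the change in *thom* from mock was −0.015 after Slmb RNAi and 0.028 after TopII RNAi, each with an exact permutation p of 0.33.

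A few distant regions of the interior met far more than others at their separation. Of 17190 pairs of 100 kb windows at least 500 kb apart with 20 or more *thom* pairs, 346 had a *thom* observed over expected value over 2. The highest, 23.05 in *thom* and 22.6 in *cis*, joined 2L:6300001-6400000 to 2L:9400001-9500000, 3100 kb apart. The other 2 of the highest 3 share 1 of these windows each. They joined 2L:6400001-6500000 to 2L:9400001-9500000 at 15.7 in *thom* and 15.03 in *cis*, and 2L:6300001-6400000 to 2L:9000001-9100000 at 15.1 in both. In the untreated libraries the highest had 629 and 560 *cis*-maternal, 679 and 630 *cis*-paternal and 1183 and 1178 *thom* pairs, so that all combinations of homologs took part about equally. Across all 17190 pairs of windows the log2 values in *cis* and *thom* had a Pearson correlation of 0.750, as a description, because the windows are shared.

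These distant contacts were lower in both knockdowns. For the highest pair the *thom* value was 23.3 and 22.8 in untreated cells, 23.9 and 23.3 in mock, 17.0 and 17.7 after Slmb RNAi and 18.8 and 17.4 after TopII RNAi. Neither knockdown overlapped mock, and 2 libraries against 2 cannot give an exact p under 0.33. In *cis* it was 20.0 and 21.2 in mock against 13.3 to 16.1 in the 4 knockdown libraries, so the decline was found in both maps. Over the 346 pairs of windows with a *thom* value over 2 in untreated cells, the median log2 change in *thom* from mock was −0.15 after Slmb RNAi and −0.13 after TopII RNAi, and 221 and 222 of them were lower. Over all 17190 it was 0.022 and 0.0093, with 48.5% and 49.4% lower. In *cis* the 346 had medians of −0.19 and −0.14. The mock libraries were the same in both comparisons.

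Over the whole interior, thom/cis at 1 to 30 kb was lower in both knockdowns than in mock. It was 0.712 and 0.715 in untreated cells and 0.706 and 0.715 in mock. After Slmb RNAi it was 0.656 and 0.657, and after TopII RNAi it was 0.637 and 0.660. The change from mock was −0.11 on the log2 scale, a ratio of 0.924, for Slmb RNAi and −0.13, a ratio of 0.913, for TopII RNAi. In neither case did the libraries overlap those of mock, and each exact permutation p was 0.33, the smallest that 2 libraries against 2 allow. Mock and untreated libraries overlapped, with a change of −0.0051.

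The knockdowns differed in how their change was spread over separations. After Slmb RNAi it was −0.13 at 1 to 10 kb, −0.089 at 10 to 100 kb and −0.052 at 100 kb to 1 Mb. After TopII RNAi it was −0.13, −0.13 and −0.11. Slmb RNAi lay above TopII RNAi by 0.046 at 10 to 100 kb and by 0.061 at 100 kb to 1 Mb, without overlap of the libraries (exact permutation p = 0.33 each, the smallest possible). The TopII replicates, at −0.47 and −0.40 for 10 to 100 kb, lay further apart than the Slmb replicates, both at −0.39. Mock itself was lower than untreated cells at 100 kb to 1 Mb, by 0.089 on the log2 scale without overlap, while at shorter ranges it was not.

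**Figure D5:**
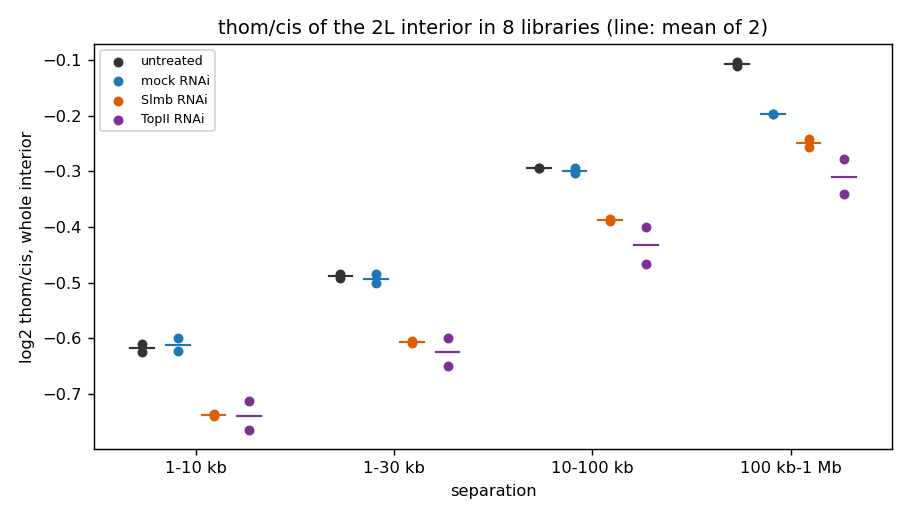
Log2 thom/cis of the whole 2L interior (vertical axis) in the 8 libraries at 4 ranges of separation, with a line at the mean of the 2 libraries of each condition. At 1 to 30 kb the 4 knockdown libraries lie between −0.65 and −0.60, below the 4 untreated and mock libraries, between −0.50 and −0.48.

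The change was broad rather than set in single windows. After Slmb RNAi 174 of 200 windows had a lower mean than in mock, with a median change of −0.11, and in 105 (52.5%) both libraries were below both mock libraries. After TopII RNAi 186 windows had a lower mean, with a median of −0.14, and in 131 (65.5%) the libraries did not overlap. Among the autosomal windows tested, 63.5% and 61.6% were lower without overlap, and without 3R, where PnM cells carry a partial uniparental disomy, 58.4% and 64.2% were. These autosomal shares include the windows of 2L, and the other arms alone were not counted. The share in 2L lay below them after Slmb RNAi and slightly above them after TopII RNAi. In the other direction 2 and 3 windows of 2L lay above mock without overlap, against 1.55% and 1.33% of autosomal windows.

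Single windows were tested with limma on log2 thom/cis (Benjamini-Hochberg adjusted p under 0.05 over the autosomal windows). No window of 2L was called between Slmb RNAi and mock, against 0% of 901 windows. At an unadjusted p under 0.05, 52 windows of 2L were lower and 0 higher. With changes centred on the median of all windows, 6 were lower and 13 higher at that limit. The share of all autosomal windows at that limit was not computed. Between TopII RNAi and mock, 2 windows of 2L were lower and 0 were higher, where 1.44% of 904 windows were called lower and 0.111% higher. They were 2L:19500001-19600000 and 2L:18600001-18700000. The first, with 0.022 and 0.060 in mock against −0.40 and −0.39 after TopII RNAi, changed by −0.43 ± 0.090 (SE, adjusted p = 0.0011). It was also −0.16 and −0.18 in untreated cells, between mock and TopII RNAi. It had 132 and 147 *thom* pairs in mock and 134 and 123 after TopII RNAi. The second, with −0.20 and −0.19 in mock against −0.57 and −0.52, changed by −0.35 ± 0.090 (adjusted p = 0.018). Neither call was kept in every alternative, as no window was called when changes were centred on the median window or at a mapping quality of at least 30. Without either TopII library no window was called, in a fit where mock alone supplies the spread and the lone TopII library is assumed to vary alike.

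Between mock and untreated cells 5 windows of 2L were called, all higher in mock, where 1.66% of 905 windows were called higher and 2.76% lower. They were 2L:11600001-11700000, 2L:7900001-8000000, 2L:15900001-16000000, 2L:16000001-16100000 and 2L:13100001-13200000. In 49 windows of 2L both mock libraries were below both untreated libraries and in 38 they were above, where 40.1% and 13.7% of the 905 windows were, and 28.9% and 17.3% without 3R. The largest change of the 5 was 0.38 ± 0.089 (SE, limma adjusted p = 0.043) in 2L:11600001-11700000, with a thom/cis of 0.236 and 0.250 in untreated cells and 0.310 and 0.324 in mock. The changes of the others were 0.35 to 0.37, and 2 of the 5 were among the 5 weakest windows of untreated cells. That ranking uses the same untreated values as this comparison, so the overlap is not separate evidence. Neither the number nor the direction of these calls was stable. With the replicate number as a block 12 were higher and 4 lower, and without 3R none was called. Without mock replicate 1, 22 were higher and 14 lower, and without mock replicate 2, 18 were higher and 22 lower. Without either untreated replicate 0 were called. In these fits with 1 library left out, the group with 2 libraries alone supplies the spread. No window of 2L was called between Slmb RNAi and TopII RNAi, against 0% of 901 windows. At an unadjusted p under 0.05, 1 was lower and 6 were higher, and the share over all autosomal windows was not computed.

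Weakly and strongly paired windows were both lower in the knockdowns. For the 50 weakest windows of untreated cells the log2 change from mock was −0.13 after Slmb RNAi and −0.16 after TopII RNAi, and for the 50 strongest it was −0.11 and −0.13. The weak windows changed more than the strong by −0.025 in both knockdowns, each with an exact permutation p of 0.67. In the weak class the mock values were −0.97 and −0.97, against −1.10 and −1.11 after Slmb RNAi and −1.15 and −1.11 after TopII RNAi. In the strong class they were −0.28 and −0.25, against −0.38 and −0.36 and against −0.43 and −0.36. Each class was lower in both knockdowns without overlap with mock, and the difference between classes was within the spread of the libraries.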

How the data were processed

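Hi-C of PnM cells (4 conditions, 2 replicates each) was analysed. The 4 RNA-seq samples were left out. After trimming, the authors mapped the reads by bwa mem (0.7.15-r1140 in the file headers) to a diploid genome built on dm3. They extracted and deduplicated pairs with pairsamtools (0.0.1-dev), and kept pairs with both sides assigned to a homolog. For both sides of a pair, the deposited lists give the position, the strand and the aligner's mapping quality score, with no normalization. Counts, maps and scores were computed here. Libraries held 10190412 to 38465767 pairs, and the RNAi series was the shallower, which limits single windows. Assignment needs sequence variants, so bins poor in them are sparse.

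Pairs were counted by midpoint in fixed windows at 1 to 30 kb. Maps of 4 kb (untreated) and 20 kb (all libraries) were balanced by iterative correction without the first 2 diagonals, without bins under 10 nonzero pixels or more than 5 median absolute deviations low. Scores needed 50% of pixels unmasked. A 20 kb bin took a class from at least 3 of its 5 bins. Windows with at least 20 *thom* and 20 *cis* pairs in each library were compared on log2 ratios (pseudocount 0.5) with limma 3.58.1 in R 4.3.3, using the libraries of the 2 groups compared, with no block, and the fit was tested on simulated data. Whole-interior and class values were compared by exact permutation or sign-flip tests, two-sided. Other steps used pyarrow 21.0.0, matplotlib 3.10.9, pandas 2.3.3 and scipy 1.17.1 under Python 3.11.15, with numpy 2.4.6.

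Named regions were the 5 weakest and 5 strongest windows, the 3 longest stretches of each class, up to 3 called windows in each direction of a comparison (all where 5 or fewer), the 3 most prominent *cis* boundaries, the 3 most prominent boundaries of each map without a partner, the 3 highest distant window pairs, and 6.0 to 7.5 Mb and 15 to 19 Mb. The region, lists and rules were chosen with earlier results of these data known. The blocks of 2 Mb, boundary profiles, boundary crossing and changes of distant contacts were added after values had been seen. Alternatives covered separation, strand, mapping quality, pseudocount, filters, window size, arms, thresholds, the replicate block and each replicate left out.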

Additional observations from a re-analysis of the deposited data

How the results depend on the processing

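Of 222 recomputed values, 136 kept their direction and call or moved within the replicate spread, 9 changed sign, 40 moved beyond that spread (counts of boundaries or stretches, and stretch lengths, by over 1.5 times), and in 21 and 16 the number of called windows was lower or higher by over 1.5 times. Changes of the interior kept their sign at every range, strand and mapping quality setting in both knockdowns. Relative to all autosomal windows, however, they were 0.030 (Slmb RNAi) and 0.010 (TopII RNAi), and relative to windows without 3R, an alternative chosen after seeing the data, 0.013 and 0.0040, with exact permutation p of 0.33 to 1, so a smaller fall in 2L than over these windows was not shown. Mock against untreated, near 0, turned to 0.0065 at 1 to 10 kb, 0.032 and 0.0080 relative to those windows, and ranged from −0.014 to 0.0035 with 1 replicate left out. Slmb against TopII RNAi ranged from −0.0075 to 0.043 with 1 replicate left out.

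Calls of single windows were unstable. With 1 replicate left out, the other group alone supplies the spread, and those counts say little about stability. Slmb RNAi against mock gave 18 with at least 100 *thom* and *cis* pairs, 2 from same-strand pairs, 34 in 200 kb windows, 16 in a fit of all 8 libraries and 5 without 3R. TopII RNAi against mock gave 7 with a pseudocount of 5, 6 with at least 100 pairs, 4 at 10 to 100 kb and 1 from same-strand pairs or without 3R. It gave 0 without a filter, at 1 to 10 kb, at 100 kb to 1 Mb, centred, at a mapping quality of at least 30 and in 200 kb windows, and 0 to 2 with 1 replicate left out. Mock against untreated gave 11 with at least 100 pairs and 10 when centred. It gave 0 without a filter, at 1 to 10 kb, at 100 kb to 1 Mb, from same-strand pairs, at a mapping quality of at least 30, in a fit of all 8 libraries and without 3R, and 0 to 40 with 1 replicate left out. Slmb against TopII RNAi gave 1 at 1 to 10 kb and 0 to 1 with 1 replicate left out. The replicate block gave 28, 0, 16 (12 higher, 4 lower) and 0 calls in these 4 comparisons. The correlations of the deviations of same-numbered samples were −0.007 to 0.064, so the numbers were not taken as a pairing. The cause was not tested.

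At a mapping quality of at least 30, untreated thom/cis was 0.663, 0.822, 0.933 and 0.950 at the 4 ranges, and from same-strand pairs it was 0.814 at 10 to 100 kb and 0.949 at 1 to 10 Mb. The spread of windows was 1.04 at 1 to 10 kb, 0.51 at 10 to 100 kb, 0.83 with both sides inside the window, from same-strand pairs or at a mapping quality of at least 30, and 0.79 to 0.81 with 1 replicate left out.

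The share of *cis* and of *thom* boundaries with a partner was 88.8% and 84.5% at a prominence over 0.1, 66.5% and 67.8% over 0.5, 62.3% and 59.5% within 1 bin, 69.6% and 67.2% within 2 bins, 92.1% and 93.7% from raw pairs and 79.7% and 82.4% with a diamond of 10 bins. With 1 replicate left out it was 76.4% to 78.2% and 71.5% to 73.3%. Their numbers were 419 and 457 over 0.1, 518 and 494 from raw pairs and 153 and 148 with the wider diamond. Stretches numbered 8 weak (896 kb) and 10 strong (488 kb) at the 10th and 90th percentile, 43 weak and 109 strong (4016 kb) in runs of at least 5 bins, and 22 strong by PS alone, which shared 24.8% of the bins of the strong stretches. The contrasts of weak and strong stretches and of like and unlike contacts kept their direction and call in the alternatives run.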
